A study of Mus musculus with 9 samples.

Results

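Nkain genes encode small brain-enriched membrane proteins that bind the sodium pump, and Atp1b genes encode the beta subunits of that pump. The genes described here are the Nkain family and the common beta subunits, 7 in all (Nkain1, Nkain2, Nkain3, Nkain4, Atp1b1, Atp1b2 and Atp1b3), out of 22296 genes named on the arrays. A gene was represented by the probe sets, short groups of probes within an exon, that the platform annotation gives to that gene alone. The family was chosen by the strong decrease of Nkain2 in Sfpq-/- against control cortex on these same arrays. The values of Nkain2 in the comparisons that hold Sfpq-/- arrays are therefore given as a description, with no test. The other members entered by family name, and their p-values come from a fit over all 16854 genes tested. Of the 7 genes, 6 were analysed and all 6 had enough signal to be tested. Nkain1 was not analysed here.

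The sodium pump is an enzyme of the cell membrane that uses ATP to carry sodium out of the cell and potassium in. Its alpha subunit does the transport, its beta subunit brings the alpha subunit to the membrane and keeps it stable, and small FXYD proteins tune its affinity for ions. In neurons the pump sets the ion gradients that electrical signalling and the uptake of transmitters draw on.

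Total RNA was taken from the cortical region of the embryonic mouse brain at E13.5, in 3 Sfpq-/- samples, 3 Sfpq+/- samples and 3 wild type controls, each on 1 whole-transcript exon array. Sfpq encodes a nuclear protein that binds RNA and DNA and acts in transcription and RNA processing. The labels name no strain, promoter, Cre line or deleted exon, and no litter, slide or date, and do not say how many embryos a sample holds or whether litters differed. The p-values therefore speak of the scatter among these samples, which may be technical. Precision is limited by the number of arrays: the SE of a difference in gene level had a median of 0.096 (log2) over genes.

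The array medians lay between 5.648 and 5.697. The 12 Sfpq probe sets with a control mean above 10 averaged 10.13 ± 0.17 in Sfpq-/- cortex, 11.96 ± 0.11 in Sfpq+/- cortex and 12.09 ± 0.03 in control cortex (log2 signal, SD, n = 3 each). Over all 23 kept Sfpq probe sets the level was 8.98 ± 0.27 in Sfpq-/-, 10.25 ± 0.24 in Sfpq+/- and 10.14 ± 0.23 in control cortex, a difference of -1.15 for Sfpq-/- and 0.12 for Sfpq+/- against control (limma adjusted p = 0.000787 and 0.9). The Sfpq-/- arrays lay below all others, while the direction of the Sfpq+/- difference depended on the probe sets taken, so Sfpq signal gives no check of the Sfpq+/- label. Forebrain markers were bright on all arrays, with mean levels of 10.18 to 10.29 in Sfpq-/- cortex, 10.42 to 10.52 in Sfpq+/- cortex and 10.38 in control cortex. At an adjusted p under 0.05 in limma, 1008 genes were higher (5.98%) and 1032 lower (6.12%) in Sfpq-/- than in control cortex. Their total of 2040 (12.1%) was 1343 without control replicate 2 and 1311 without Sfpq-/- replicate 1. Between Sfpq+/- and control cortex limma called 0 of 16854 genes (0%), and 4.24% had an unadjusted p under 0.05.

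The 2 sequences below show where transcripts begin of Nkain2, the member with the largest difference, and of Atp1b1, the beta subunit gene that rose. They run from 250 bases before to 50 bases after a transcription start in RefSeq (build GRCm38.p6), and capitals mark GC boxes, the letters GGGCGG on either strand. RefSeq promoters were found for 4 of the 7 genes: Nkain1, Nkain2, Atp1b1 and Atp1b3.
Nkain2 (chr10:32889866-32890165, minus strand): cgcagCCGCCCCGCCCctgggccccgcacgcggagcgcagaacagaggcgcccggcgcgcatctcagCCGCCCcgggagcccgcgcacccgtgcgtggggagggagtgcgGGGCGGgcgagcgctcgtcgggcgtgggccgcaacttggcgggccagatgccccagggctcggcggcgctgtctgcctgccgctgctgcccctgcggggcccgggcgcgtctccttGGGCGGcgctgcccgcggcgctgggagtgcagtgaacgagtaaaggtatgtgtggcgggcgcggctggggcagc
Atp1b1 (chr1:164458306-164458605, minus strand): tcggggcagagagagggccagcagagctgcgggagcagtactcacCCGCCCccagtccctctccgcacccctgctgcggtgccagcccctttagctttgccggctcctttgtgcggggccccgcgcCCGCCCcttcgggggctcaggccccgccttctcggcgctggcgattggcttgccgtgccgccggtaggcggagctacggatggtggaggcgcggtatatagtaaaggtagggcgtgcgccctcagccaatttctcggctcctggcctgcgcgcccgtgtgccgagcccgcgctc
The Nkain2 window held 5 GC boxes, of which the first and second share a base, and was 78.7% G and C. The Atp1b1 window held 2 GC boxes and 2 CCAAT boxes (CCAAT on either strand), which did not overlap one another, and was 71% G and C. Neither held TATAAA on either strand. Among 32851 RefSeq promoter windows of this length, 35.7% held a GC box, 37.4% a CCAAT box and 13.6% TATAAA, and the median G and C content was 52.7%. These letters are a description of the windows.

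Nkain2 stood far below the other groups in Sfpq-/- cortex and a little below controls in Sfpq+/- cortex. Its gene level, the mean log2 signal of its kept probe sets, was 7.04, 7.02 and 7.18 on the Sfpq-/- arrays. It was 9.02, 9.065 and 8.99 on the Sfpq+/- arrays and 9.44, 9.34 and 9.57 on the control arrays. The 3 groups did not overlap, and the order was Sfpq-/-, Sfpq+/- and control from low to high. The Sfpq-/- mean was 5.175-fold below the control mean (log2 difference -2.37) and 3.85-fold below the Sfpq+/- mean (-1.95). These are the values for which the gene was chosen, or share its arrays. In such bulk tissue, fewer cells that express a gene and less of its RNA per cell cannot be told apart.

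The Sfpq+/- arrays had no part in that choice, although the controls did. In Sfpq+/- cortex Nkain2 lay 1.344-fold below its control level (log2 change -0.43, 95% interval -0.61 to -0.24, SE 0.08), with all 3 Sfpq+/- arrays below all 3 controls. The change did not pass over all genes (limma adjusted p = 0.886). It ranked 29th lowest of 16854 genes in that comparison. Arrays that do not overlap in this direction were found for 3.99% of all genes.

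**Figure D1:**
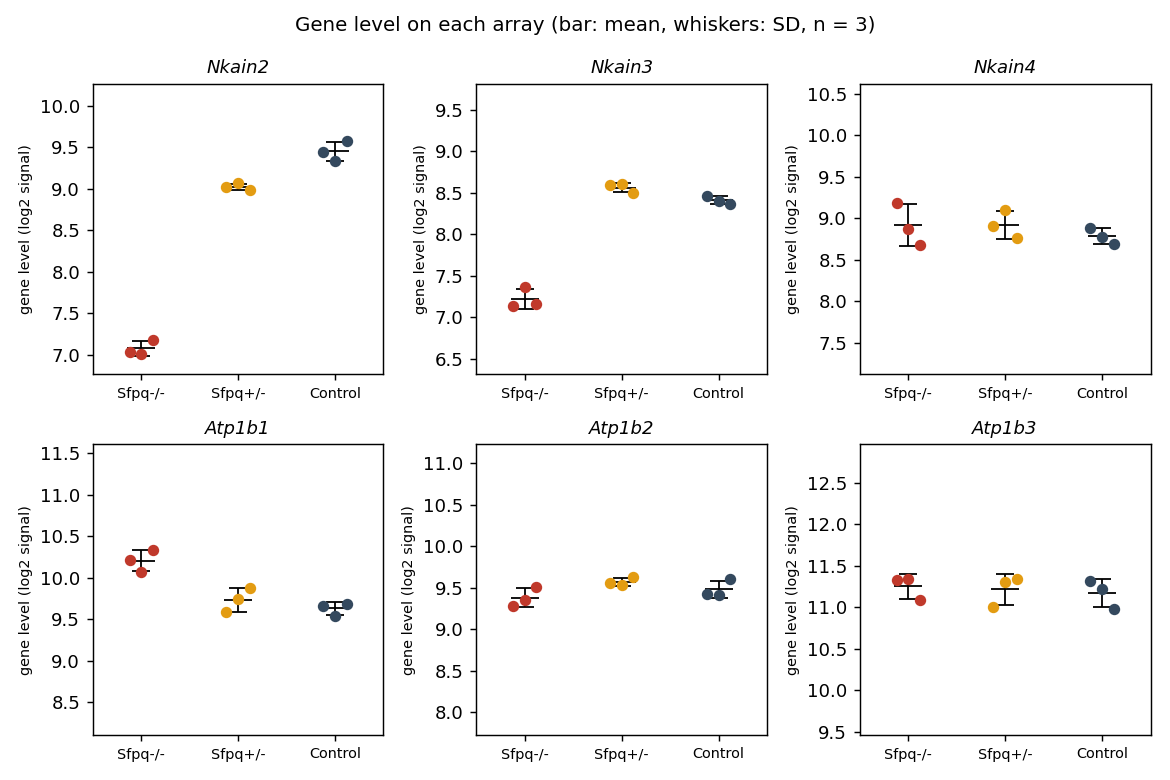
Gene level of the 6 measured members (log2 signal, y axis) on each array, by group (x axis), with points for arrays, bars for means and whiskers for SD (n = 3). The y axes have equal length and are centred on each gene: Nkain2 lies near 7.1 in Sfpq-/- and between 9.34 and 9.57 in control arrays, Nkain3 is lower and Atp1b1 higher in Sfpq-/-, and the groups of Nkain4, Atp1b2 and Atp1b3 overlap between Sfpq-/- and control.

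The probe sets of Nkain2 did not all move alike. Of 12 annotated, 9 had a mean over all arrays above the limit for dim probe sets (5.64) and were kept. All 9 were lower in Sfpq-/- than in control cortex, where 49.3% of all kept probe sets were, and none overlapped between the groups, as for 7.4% of all kept probe sets in this direction. They fell into 7 with log2 differences of -3.37 to -2.17 and 2 with smaller ones, -0.74 (probe set 4343404) and -0.49 (probe set 4507411). The 3 dim probe sets differed by -0.57, -0.48 and -0.05.

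Probe set 4674351 showed the largest difference. Its log2 signal was 6.998, 6.81 and 6.48 on Sfpq-/- arrays, 9.44, 9.46 and 9.58 on Sfpq+/- arrays and 9.99, 9.99 and 10.42 on control arrays. Probe set 4507411 had 6.44, 6.24 and 6.54 on Sfpq-/- arrays, 7.12, 7.20 and 7.35 on Sfpq+/- arrays and 6.84, 6.89 and 6.97 on control arrays. Its Sfpq+/- arrays thus lay above the controls, opposite to the other 8 kept probe sets of the gene.

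In Sfpq+/- cortex 8 of the 9 kept Nkain2 probe sets lay below the controls (48.1% of all did) with no overlap, by -0.64 to -0.29 on the log2 scale, and 1 (probe set 4507411) lay above (51.9% of all did) by 0.32. Across all kept probe sets, 5.3% lay below and 5.27% above without overlap in this comparison. None of the 9 passed limma's test over 628415 probe sets (adjusted p = 0.983 for each), and neither did any other probe set (0% called). The probe sets of a gene were read from the same RNA and are not independent of each other.

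**Figure D2:**
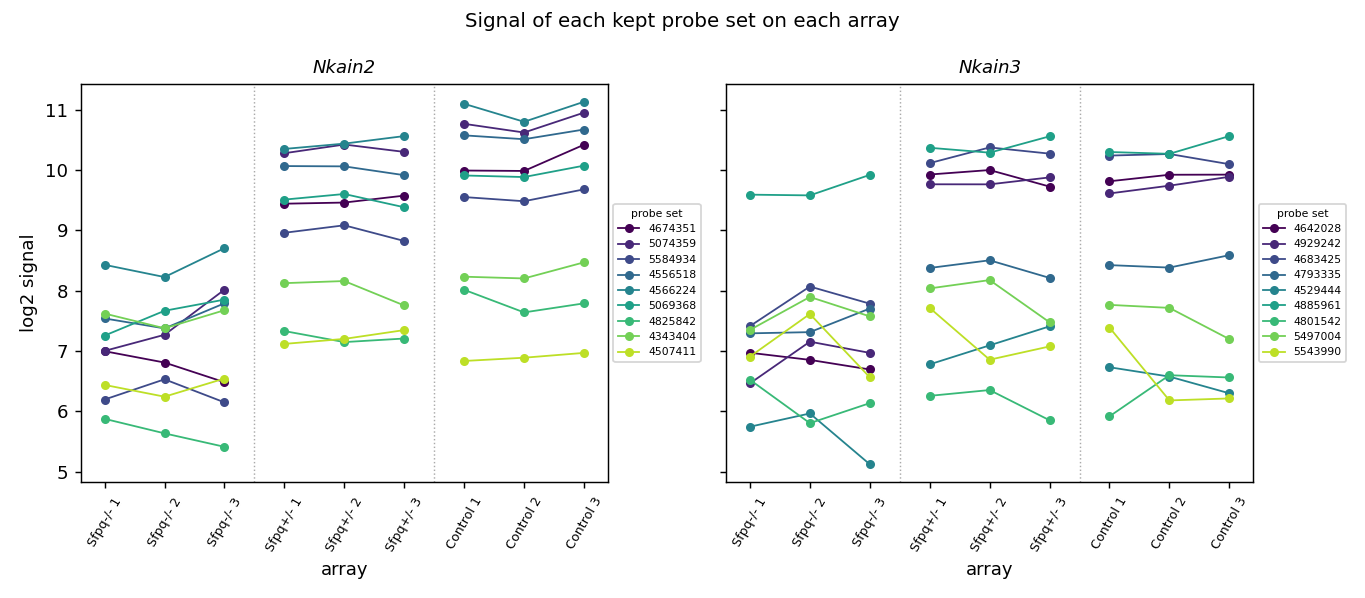
Log2 signal (y axis) of each kept probe set of Nkain2 and Nkain3 on each of the 9 arrays (x axis), 1 colour per probe set, with lines joining the arrays of a group. In group means against control, the 7 Nkain2 probe sets with the largest differences drop by over 2 units in Sfpq-/-. For Nkain3 3 probe sets do so, while 4885961 stays above 9.5.

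Nkain3, the second long member of the family, fell in Sfpq-/- cortex. Its gene level was 7.14, 7.36 and 7.16 on the Sfpq-/- arrays, 8.59, 8.60 and 8.50 on the Sfpq+/- arrays and 8.47, 8.41 and 8.37 on the control arrays. Each Sfpq-/- array lay at least 1 unit below each of the others, and 10.8% of all genes had Sfpq-/- arrays below the controls without overlap. The level was 7.22 ± 0.12 in Sfpq-/- and 8.42 ± 0.05 in control cortex (SD, n = 3 each), a 2.285-fold decrease (log2 change -1.19, 95% interval -1.37 to -1.01, SE 0.08, limma adjusted p = 4.8e-06). In that direction 6.12% of all genes were called.

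Against Sfpq+/- cortex, which shares the Sfpq-/- arrays with the first comparison, Nkain3 fell by 1.34 (SE 0.08, limma adjusted p = 1.71e-06), a direction in which 7.25% of all genes were called. Sfpq+/- and control cortex differed in Nkain3 by 0.15 (95% interval -0.03 to 0.33, limma adjusted p = 0.886), with the 3 Sfpq+/- arrays above the 3 controls, as for 8.52% of all genes. Taken as the median rather than the mean of its probe sets, that difference was -0.10, so its direction is not settled. The same median gave -0.53 for Nkain2, and neither gene passed under it.

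The 9 kept probe sets of Nkain3, of 12 annotated, had differences of -3.05 to 0.43 between Sfpq-/- and control cortex. In Sfpq-/- against control cortex 4 fell in limma's test over all probe sets, where 1.19% of all were called lower: 4642028 (-3.05), 4929242 (-2.88), 4683425 (-2.45) and 4793335 (-1.03), with adjusted p of 0.0114 or less. Probe set 4642028 had 6.97, 6.85 and 6.70 on Sfpq-/- arrays and 9.81, 9.92 and 9.93 on control arrays. The other 5 did not pass.

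The brightest Nkain3 probe set, 4885961, was among those 5, with 9.59, 9.58 and 9.92 on Sfpq-/- arrays, 10.37, 10.29 and 10.56 on Sfpq+/- arrays and 10.30, 10.27 and 10.56 on control arrays. Its difference was -0.68 (adjusted p = 0.0782), without overlap. Probe sets 5497004 and 5543990 differed by 0.05 and 0.43, with overlapping arrays, and the 3 dim ones by -0.77, -0.71 and -0.60. Where these probe sets lie along the gene was not analysed here.

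Nkain4 showed no change past the test in any comparison. Its level was 9.18, 8.87 and 8.68 on Sfpq-/- arrays, 8.90, 9.09 and 8.76 on Sfpq+/- arrays and 8.88, 8.77 and 8.69 on control arrays. The groups overlapped throughout. The difference between Sfpq-/- and control cortex was 0.13 (95% interval -0.15 to 0.41, limma adjusted p = 0.616) and had the opposite sign without Sfpq-/- replicate 1 (-0.004). Between Sfpq+/- and control cortex it was 0.14 (95% interval -0.15 to 0.42, limma adjusted p = 0.886). All 7 of its probe sets were kept, and their differences in Sfpq-/- ran from -0.03 to 0.52.

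The 2 Nkain genes that were lower are very long. Nkain4 is short, as is Nkain1, which was not analysed. By the span from first to last annotated base in RefSeq (GRCm38.p6), Nkain2 covers 1207.9 kb and Nkain3 669.7 kb, while Nkain4 covers 20.2 kb and Nkain1 44.1 kb. The beta subunit genes cover 6.3 to 31.8 kb. Of 205 tested genes of at least 500 kb, 119 were lower and 1 higher in Sfpq-/- than in control cortex, with a median log2 change of -0.45 against 0.03 over all genes. Of 713 genes of 200 to 500 kb, 272 were lower and 32 higher there (median -0.18). Of 1336 genes of 100 to 200 kb, 217 were lower and 100 higher. Of 14453 genes under 100 kb, 409 were lower and 870 higher. Over all tested genes 6.12% were called lower and 5.98% higher. Nkain3 stood 26th lowest among the 205 long genes. Whether gene length had a part in these differences was not tested.

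In Sfpq+/- against control cortex the median of the same 205 genes was 0.04 and none passed. Nkain2 was the lowest of them there, and Nkain3 stood 171st. The comparison uses the same control arrays as the choice of Nkain2, so the rank of Nkain2 is not independent of that choice.

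Of the beta subunits, Atp1b1 rose in Sfpq-/- cortex. Atp1b1 encodes the widely expressed beta1 subunit, the one to which Nkain proteins were found to bind. Its level was 10.215, 10.07 and 10.33 on Sfpq-/- arrays, 9.59, 9.74 and 9.87 on Sfpq+/- arrays and 9.66, 9.54 and 9.69 on control arrays. All Sfpq-/- arrays lay above all others, while Sfpq+/- and control arrays overlapped. Such a gap was found for 16.1% of all genes against control and for 13.2% against Sfpq+/- cortex.

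The Atp1b1 mean was 10.21 ± 0.13 in Sfpq-/- and 9.63 ± 0.08 in control cortex (SD, n = 3 each), a 1.488-fold increase (log2 change 0.57, 95% interval 0.36 to 0.78, SE 0.10, limma adjusted p = 0.00226). Against Sfpq+/- cortex Atp1b1 rose by 0.47 (SE 0.10, limma adjusted p = 0.0072), where 4.58% of all genes were called higher. Sfpq+/- differed from control cortex by 0.10 (95% interval -0.11 to 0.31, limma adjusted p = 0.886). Atp1b1 was thus called higher and Nkain3 lower, beside the background of 5.98% and 6.12% of all genes.

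All 12 Atp1b1 probe sets were kept, and 11 were higher in Sfpq-/- than in control cortex, where 50.7% of all kept probe sets were. Arrays did not overlap for 9 of them (7.65% of all kept probe sets in this direction), and 4 passed limma's test over all probe sets, where 0.561% were called higher. The largest rise was 1.04 at probe set 4319438 (adjusted p = 0.00859), with 10.16, 10.17 and 10.21 on Sfpq-/- arrays and 9.44, 8.98 and 8.98 on control arrays. The brightest probe set, 5190275, differed by 0.13 with overlap, and 5303304 by -0.14.

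Atp1b2 encodes the beta2 subunit, also known as the adhesion molecule on glia. Its level was 9.29, 9.36 and 9.51 on Sfpq-/- arrays, 9.55, 9.54 and 9.63 on Sfpq+/- arrays and 9.42, 9.42 and 9.605 on control arrays. Sfpq-/- and control arrays overlapped, with a difference of -0.10 (95% interval -0.28 to 0.09, limma adjusted p = 0.558). Against Sfpq+/- cortex the Sfpq-/- arrays lay lower without overlap, by -0.19 (95% interval -0.38 to -0.003), but did not pass over all genes (limma adjusted p = 0.214). In that comparison 13.6% of all genes lay lower without overlap.

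Atp1b3 encodes the beta3 subunit, which is expressed in many tissues. Its level was 11.32, 11.34 and 11.08 on Sfpq-/- arrays, 11.002, 11.30 and 11.33 on Sfpq+/- arrays and 11.32, 11.21 and 10.98 on control arrays. The groups overlapped in each comparison. Sfpq-/- differed from control cortex by 0.08 (95% interval -0.19 to 0.34, limma adjusted p = 0.768) and Sfpq+/- from control cortex by 0.04 (95% interval -0.22 to 0.31, limma adjusted p = 0.947). The intervals of both beta subunits leave out the 1.488-fold rise seen for Atp1b1.

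**Figure D3:**
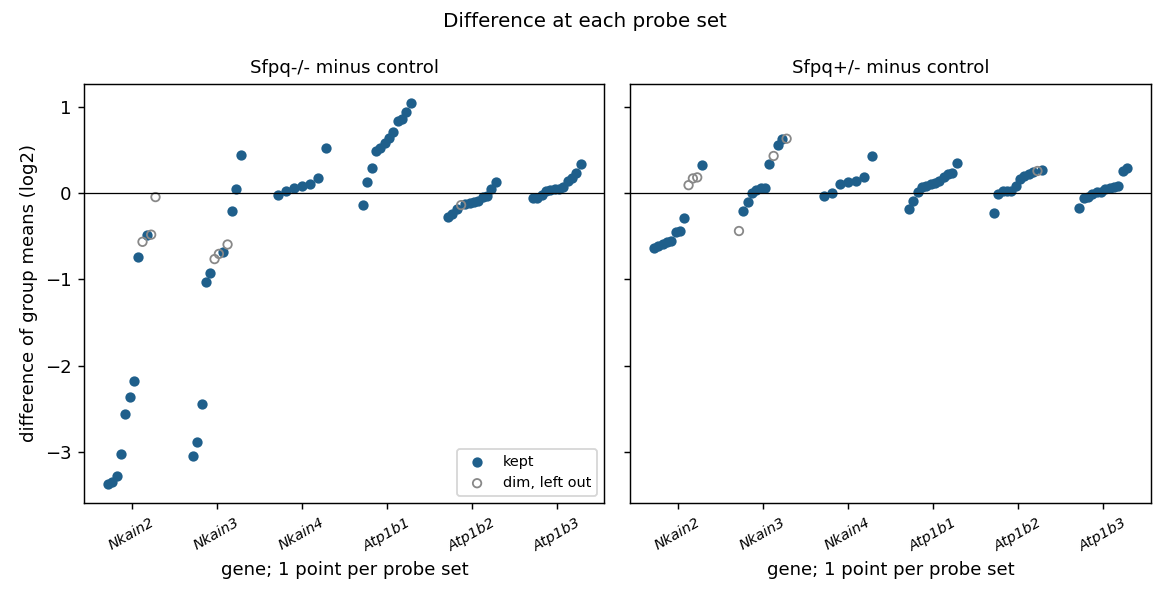
Difference of group means (log2, y axis) at each probe set of the 6 measured members, for Sfpq-/- minus control (left) and Sfpq+/- minus control (right), with dim probe sets as open circles. On the left Nkain2 reaches -3.37 and Nkain3 -3.05 while 11 of 12 Atp1b1 probe sets lie above 0; on the right 8 of 9 kept Nkain2 probe sets lie below 0.

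The other parts of the pump were read in the same fit. Atp1a4, the alpha subunit of the testis, had a difference of -0.07 between Sfpq-/- and control cortex (limma adjusted p = 0.698).

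Of 7 FXYD genes, all tested, 1 rose and none fell in Sfpq-/- against control cortex, with a median change of 0.02 beside 0.03 over all genes. Of all genes 5.98% were called higher and 6.12% lower there. The gene that rose was Fxyd7, a regulator of the pump found in brain. Its level was 9.35, 9.14 and 9.32 on Sfpq-/- arrays, 8.25, 8.33 and 8.255 on Sfpq+/- arrays and 8.24, 8.03 and 8.25 on control arrays. The Sfpq-/- arrays lay clear of all others, at 2.132-fold the control level (log2 change 1.09, 95% interval 0.90 to 1.28, SE 0.09, limma adjusted p = 1.31e-05).

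Against Sfpq+/- cortex Fxyd7 rose by 0.99 (limma adjusted p = 2.48e-05), while Sfpq+/- differed from control cortex by 0.10 (95% interval -0.09 to 0.29, limma adjusted p = 0.886). Its 9 kept probe sets fell into separate kinds. Of these, 5 rose by 1.32 to 2.87 in Sfpq-/- against control cortex and passed limma's test, with no overlap. Among all kept probe sets 0.561% were called higher and 7.65% lay higher without overlap. The other 4 kept ones of Fxyd7 differed by 0.02 to 0.15, with overlap. Its 2 dim probe sets differed by 2.30, without overlap, and by 0.40, with overlap.

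Probe set 5367122 of Fxyd7 had 9.35, 9.06 and 8.90 on Sfpq-/- arrays and 6.90, 5.77 and 6.03 on control arrays. Probe set 4984659 of the same gene had 10.30, 9.86 and 9.795 on Sfpq-/- arrays and 10.17, 9.865 and 9.87 on control arrays. The remaining FXYD genes had differences of 0.17 for Fxyd5, -0.15 for Fxyd6, 0.10 for Fxyd1, 0.02 for Fxyd2, -0.02 for Fxyd4 and 0.01 for Fxyd3, with limma adjusted p between 0.234 and 0.982, and the signs of Fxyd2, Fxyd3 and Fxyd4 turned in some alternative settings. None of the 4 other pump relatives passed: the beta-like Atp1b4, the gastric proton pump subunits Atp4a and Atp4b, and Atp12a.

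Ion and transmitter carriers, most of them driven by the sodium gradient, moved in part. The list also holds Slc12a5, which carries potassium and chloride and no sodium, and which differed by 0.17 in Sfpq-/- against control cortex (limma adjusted p = 0.491). Of 12 listed, 10 were tested, and in Sfpq-/- against control cortex 3 fell and none rose, with a median change of -0.13. Over all genes 6.12% were called lower and 5.98% higher in that comparison. The sodium-calcium exchanger gene Slc8a1 had levels of 6.78, 6.85 and 6.72 on Sfpq-/- arrays, 8.03, 7.93 and 7.83 on Sfpq+/- arrays and 7.90, 7.60 and 7.72 on control arrays. It fell 1.938-fold (log2 change -0.95, SE 0.09, limma adjusted p = 5.7e-05), and it differed by 0.19 in Sfpq+/- (limma adjusted p = 0.886). All 22 kept Slc8a1 probe sets were lower in Sfpq-/- than in controls, where 49.3% of all kept probe sets were. The 4 dim ones of this gene differed by -0.43, -0.40, -0.04 and 0.04, each with overlapping arrays.

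The exchanger gene Slc8a3 fell by 0.42 (limma adjusted p = 0.0156) and the glial glutamate transporter gene Slc1a2 by 0.31 (limma adjusted p = 0.0381). The Slc8a3 call ended without control replicate 2, control replicate 3 or Sfpq-/- replicate 1 (adjusted p = 0.0616, 0.0617 and 0.0528). Leaving out 1 array ended the Slc1a2 call for every array but control replicate 3, with adjusted p between 0.06 and 0.126. It also ended with a median in place of the mean over probe sets (-0.21, adjusted p = 0.287), with no filter on dim probe sets (0.113), with a stricter filter (0.134) and with only these groups in the fit (0.096). Against Sfpq+/- cortex Slc8a1 (-1.14), Slc8a3 (-0.41), Slc1a2 (-0.31) and the neuronal glutamate transporter gene Slc1a1 (-0.60, limma adjusted p = 0.00125) were called lower. In that comparison 7.25% of all genes were called lower. There the Slc1a2 call ended whichever array was left out and with the median, no filter or the stricter filter (adjusted p = 0.205, 0.105 and 0.0937), and the Slc8a3 call without Sfpq+/- replicate 1 or Sfpq-/- replicate 1 (adjusted p = 0.0735 and 0.0556).

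**Figure D4:**
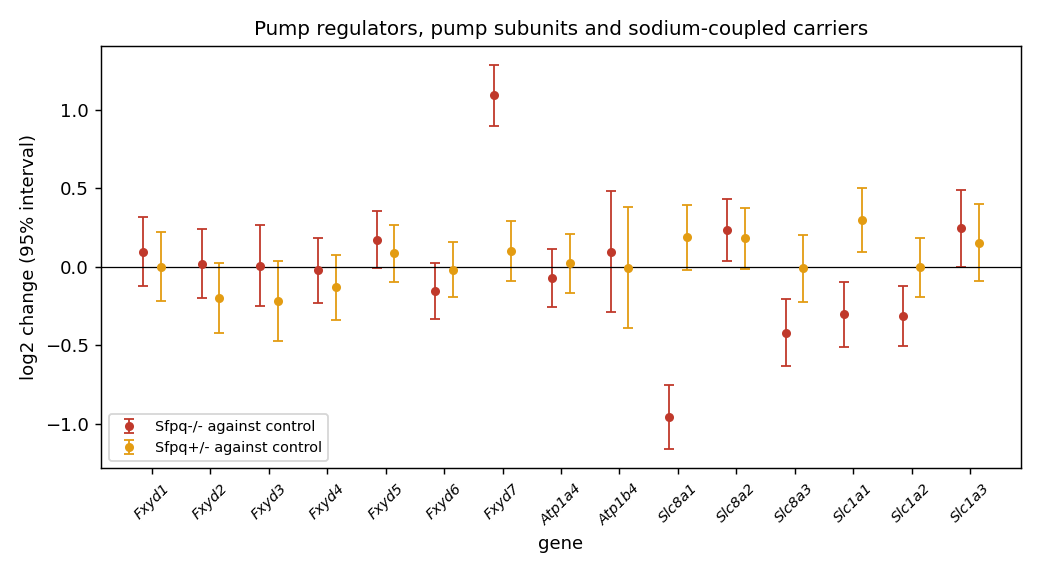
Log2 change with its 95% interval (y axis) for the FXYD genes, Atp1a4, Atp1b4 and 6 sodium-coupled carriers (x axis), in Sfpq-/- (left of each pair) and Sfpq+/- (right) against control cortex. Fxyd7 stands at 1.09 and Slc8a1 at -0.95 in Sfpq-/-, and the 2 comparisons share the control arrays.

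Markers of cell types in or near the cortex were measured beside these genes, and their part in the results was not tested. Over all genes 5.98% were called higher and 6.12% lower in Sfpq-/- against control cortex. Of 7 neuron markers 1 rose in Sfpq-/- cortex, the neurofilament-related gene Ina (0.42, limma adjusted p = 0.0116), and none fell. Their mean level ran from 11.11 to 11.21 in Sfpq-/-, 11.09 to 11.23 in Sfpq+/- and 10.97 to 11.12 in control cortex. None of 8 radial glia markers passed, with mean levels of 11.24 to 11.54, 11.39 to 11.50 and 11.33 to 11.44 in the same order of groups.

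Of 7 forebrain markers 3 fell in Sfpq-/- against control cortex, namely Fezf2 (-0.49), Neurod6 (-0.41) and Lhx2 (-0.34), where 6.12% of all genes were called lower and 5.98% higher. Of 8 microglia markers 5 rose, by 0.30 to 0.36, with mean levels of 8.01 to 8.09 in Sfpq-/-, 7.68 to 7.89 in Sfpq+/- and 7.74 to 7.83 in control cortex. Against Sfpq+/- cortex only 1 of these 8 was called higher, C1qb (0.37), where 4.58% of all genes were. In Sfpq-/- against control cortex Rgs5 rose among 7 endothelial and pericyte markers (0.30). Of 8 ganglionic eminence and interneuron markers 1 rose, Gad1 (0.98), with 8.56, 8.34 and 8.575 on Sfpq-/- arrays and 8.095, 7.39 and 7.04 on control arrays. The mean level of these 8 ran from 8.78 to 8.99 in Sfpq-/-, 8.55 to 8.85 in Sfpq+/- and 8.47 to 9.44 in control cortex, and control replicate 1 was the highest control for each of them. Without that array the log2 change in Sfpq-/- against control was -1.17 for Nkain3 and 0.59 for Atp1b1, and both calls held. None of 7 choroid plexus, 7 meningeal and 5 erythroid markers passed in Sfpq-/- against control cortex. No marker list had a tested gene with a mean level under 6.46.

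Genes named only by a clone number or a similar provisional name were left out of the ranking that follows. Among the others outside the family, the genes whose levels followed Nkain2 most closely over the 9 arrays were Kcnip1, an accessory subunit of potassium channels (r = 0.993), the transcription factor Ebf4 (0.991), the alkaline phosphatase gene Alpl (0.991), the adhesion molecule gene Cadm2 (0.990) and the potassium channel gene Kcnq5 (0.989). These Pearson correlations describe 9 points that fall into groups, with the Sfpq-/- arrays far from the others for Nkain2. In Sfpq-/- against control cortex these genes differed by -1.77, -0.95, -0.96, -1.64 and -0.64, and in Sfpq+/- against control cortex, which shares the controls, by -0.39, -0.24, -0.13, -0.11 and -0.13. Within the family the same measure was 0.953 for Nkain3, 0.591 for Atp1b2, -0.25 for Atp1b3, -0.257 for Nkain4 and -0.916 for Atp1b1.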

How the data were processed

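Signals were measured on 9 Affymetrix Mouse Exon arrays, 3 per genotype. The deposited values are log2 signals per probe set, which the authors made, per the submitters' processing notes, in Affymetrix Expression Console 1.2.0.20. The sources used here do not state the settings for background, normalization and probe set summary, so these are not known. The log2 unit was taken from the values, and no further normalization was applied. Groups came from the titles. The extraction protocol in the labels lists Sfpq+/- a second time where Sfpq-/- would stand.

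Gene symbols of probe sets came from GEO's platform annotation: of 1256831 probe sets, 318760 had 1 symbol, 6684 had several and were used in no gene, and 931387 were unnamed. Old symbols (3993) were updated through unique RefSeq synonyms. Probe sets with a mean over all arrays above the median of such means (5.64) were kept, 628415 in all. The mean of a gene's kept probe sets is its level. At least 3 were required, and 16854 genes met this.

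Genes and probe sets were each fitted with limma 3.58.1 (lmFit and eBayes, R 4.3.3) on all 9 arrays with 3 group means and no covariate, and p-values were adjusted by Benjamini-Hochberg, with calls made under 0.05. The fits were tested on simulated data. Intervals are 95% intervals of the moderated fit. The members and gene lists were chosen with earlier results of these data known. All members were named. Of the FXYD and alpha subunit lists all tested genes were named, and of the other pump and carrier lists those that passed. The 5 genes most correlated with Nkain2 were also named, with genes under a clone number or a similar provisional name left out. Atp4a, Atp4b, Atp1b4, Atp12a and Slc12a5 were named beyond that rule, as were the marker genes that passed and, among probe sets, 4793335 and 4885961 of Nkain3, which were chosen after their values were seen. The alternatives were the gene summary, the filter on dim probe sets, normalization, the arrays in the fit, the variance moderation, the replicate number as a block and leaving out each array. A different background correction and a slide block were not used here.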

Additional observations from a re-analysis of the deposited data

How the results depend on the processing

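The directions and calls of Nkain3, Atp1b1, Fxyd7 and Slc8a1 in Sfpq-/- against control cortex held under all 8 alternatives and all 6 fits that left out 1 array: the log2 change ran from -1.673 to -1.067 for Nkain3, from 0.512 to 0.752 for Atp1b1, from 1.021 to 1.276 for Fxyd7 and from -1.026 to -0.839 for Slc8a1. Nkain2 stood at -2.64 with the median of probe sets, -1.87 with no filter on dim probe sets and -2.669 with a stricter filter (above 7.33), the filters adding dim probe sets to its mean or taking them out, and between -2.429 and -2.31 when 1 array was left out. Numbers of genes called in Sfpq-/- against control cortex ran from 1311 to 2453 when 1 array was left out. Numbers of probe sets called there were 11007 in the fit reported, 6049 with no filter, 5837 with only the 2 groups compared, 17908 with trend and robust moderation, and 5594 to 9077 when 1 array was left out. In Sfpq+/- against control cortex the stricter filter called 1 gene (Kcnip1, lower), and leaving out 1 array called 0 to 1 (4930583K01Rik, lower, without Sfpq+/- replicate 2); both names follow from these counts and not from the naming rule.

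Some of the differences that passed in no setting changed sign. With the median of probe sets these were Nkain3 in Sfpq+/- against control (-0.101), Nkain4 in Sfpq-/- against Sfpq+/- (0.083), and Fxyd2 (-0.011) and Fxyd4 (0.067) in Sfpq-/- against control. Fxyd4 was 0.02 with no filter and Fxyd2 -0.006 with the stricter one; Nkain4 against Sfpq+/- was 0.008 with the stricter filter, 0.012 with quantile normalization and 0.002 with median centring. When 1 array was left out, Nkain4 ran from -0.004 to 0.246, Atp1b3 from -0.016 to 0.162, Fxyd2 from -0.065 to 0.096, Fxyd3 from -0.118 to 0.103 and Fxyd4 from -0.112 to 0.04 against control, Atp1b3 from -0.051 to 0.149 in Sfpq+/- against control, and in Sfpq-/- against Sfpq+/- Nkain4 from -0.14 to 0.111 and Atp1b3 from -0.07 to 0.119. The cause was not tested. Slc1a1 passed against control with the stricter filter, with trend and robust moderation, under the replicate block (adjusted p = 0.0471) and without Sfpq-/- replicate 3.

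Samples of different groups share only a replicate number: the correlation of same-numbered arrays' deviations from their group means was 0.276, 0.006 and 0.574 for Sfpq-/- with control. With the replicate block 2469 genes were called in Sfpq-/- against control, 0 in Sfpq+/- against control and 2367 in Sfpq-/- against Sfpq+/- cortex, in place of 2040, 0 and 1994. Not every array correlated best with its own number.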
